A study of Mus musculus with 13 samples.

Results

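The comparison set total RNA of IMP1 knockout (KO) mouse embryonic fibroblasts against total RNA of IMP1 wild-type (WT) fibroblasts. It used the library titled as IMP1 KO total RNA and the one titled as IMP1 WT total RNA, 2 of the 13 libraries of the series, and the counts of autosomal genes. Per the labels, both cell types are embryonic fibroblasts (MEFs), with E12.5 given as the stage, grown in DMEM with 10% FBS. The KO cells are deleted for IMP1, and the WT cells carry no change named in the labels. The study also holds 1 IMP2 KO and 1 IMP2 WT total RNA library, and 9 RNA immunoprecipitation (IP) libraries pulled down with an antibody to IMP1, an antibody to IMP2 or control IgG, 3 of each. The labels do not give the deleted exons, the mouse strain, the number of embryos or clones behind a library, or the genotype of the cells used for the IPs. With 1 library per genotype there is no replicate check and no p-value for the knockout, so each difference below is between 2 libraries.

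IMP1, encoded by Igf2bp1, is an RNA-binding protein of the IGF2BP family, named for binding the mRNA of insulin-like growth factor 2. It is made in many embryonic tissues and largely switched off after birth. It packs bound messages into cytoplasmic granules and is known to act on their stability, transport and translation, with messages of Igf2, beta-actin and Cd44 among its described ligands. Embryonic fibroblasts are a mixed population of mesenchymal cells, and they keep in culture some of the transcription factor pattern of the body region from which they came. Such factors include the Hox genes, which mark position along the trunk and limbs, and T-box, LIM and paired-type homeobox genes, which mark particular limbs and segments.

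The KO library held 11430002 gene counts and the WT library 14756745, with 17467 and 18766 genes at 1 count or more. Levels are given in CPM, gene counts relative to library size after TMM scaling. A count of 0 allows up to 3 counts, which is 0.2625 CPM in KO and 0.2033 CPM in WT before that scaling. The libraries differed in transcripts of the sex chromosomes, which were left out of the comparisons of autosomal genes. Ddx3y, Eif2s3y, Kdm5d and Uty, genes of the Y chromosome, had 0 counts in IMP1 KO against 752, 339, 152 and 133 counts in IMP1 WT. The IMP2 KO library likewise held 0 to 3 counts of each, against 284 to 1925 in IMP2 WT. Xist, which is made from the inactive X chromosome, did not stand high in the libraries that lack Y transcripts. It had 9.89 CPM in IMP1 KO, 4.41 CPM in IMP1 WT, 7.51 CPM in IMP2 KO and 0 CPM in IMP2 WT, against 43.5 to 753 CPM in the 9 IP libraries. The labels do not give the sex of the embryos, and the absence of Y transcripts and the genotype cannot be told apart in either knockout. Of 16 fibroblast markers, all were detected in both IMP1 libraries and 15 were measured, which here means at least 10 CPM in 1 of the 2 libraries. The collagen Col1a1 had 10390 CPM in KO and 10757 CPM in WT, and Vim, the mesenchymal intermediate filament, 4774 and 5752 CPM. Not all were so alike. Of the 15, 3 were at least 2-fold higher in KO (Pdgfrb, Postn and Prrx1) and 3 at least 2-fold lower, among them Fn1 and Col3a1. Over all measured genes, 5.19% were higher and 6.18% lower. The IMP1 KO library also stood apart by whole chromosomes, with genes of chromosomes 3 and 4 lower and those of chromosome 10 higher by small amounts, as the chromosome medians show.

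The targeted gene was checked first. Igf2bp1 (GRCm38.p6, chromosome 11, 95957163 to 96005944) had 38 counts in IMP1 KO against 476 counts in IMP1 WT, or 3.21 against 32.3 CPM. It stood at 16.2 CPM in IMP2 KO and 23.96 CPM in IMP2 WT, so IMP1 KO was the lowest of the 4 libraries. A count over the whole gene leaves unknown where in the transcript the remaining 38 reads lie. The relatives did not differ 2-fold: Igf2bp2 had 130 CPM in KO and 168 CPM in WT, and Igf2bp3 had 38.0 and 30.9 CPM. Within 1 Mb of Igf2bp1, 29 other genes were measured, with a median log2 ratio of 0.06. Of these, 3 were at least 2-fold higher in KO (Samd14, Hoxb5os and Hoxb3) and 2 lower (the integrin Itga3 and Hoxb4). The gene nearest to Igf2bp1 among them, Snf8 at 28.9 kb, had 38.7 CPM in KO and 36.1 CPM in WT.

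Of 9416 measured autosomal genes, 489 (5.19%) were at least 2-fold higher in IMP1 KO and 582 (6.18%) at least 2-fold lower. Differences of 4-fold or more numbered 155 higher and 255 lower. The typical gene differed little, with a median log2 ratio of -0.03, quartiles of -0.31 and 0.26, and a median absolute log2 ratio of 0.29. Set against the IMP2 WT library in place of IMP1 WT, IMP1 KO was at least 2-fold higher for 431 of 9404 genes (4.58%) and lower for 578 (6.15%). Between the WT libraries, IMP2 WT was at least 2-fold higher than IMP1 WT for 13 of 9160 genes (0.142%) and lower for 37 (0.404%). The IMP2 KO library differed from IMP2 WT more widely, with 717 of 9580 genes (7.48%) at least 2-fold higher and 708 (7.39%) lower. The WT libraries thus gave fewer genes past 2-fold than either comparison of IMP1 KO with a WT. In bulk RNA of a mixed culture, fewer cells of one kind and less RNA per cell cannot be told apart.

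**Figure D1:**
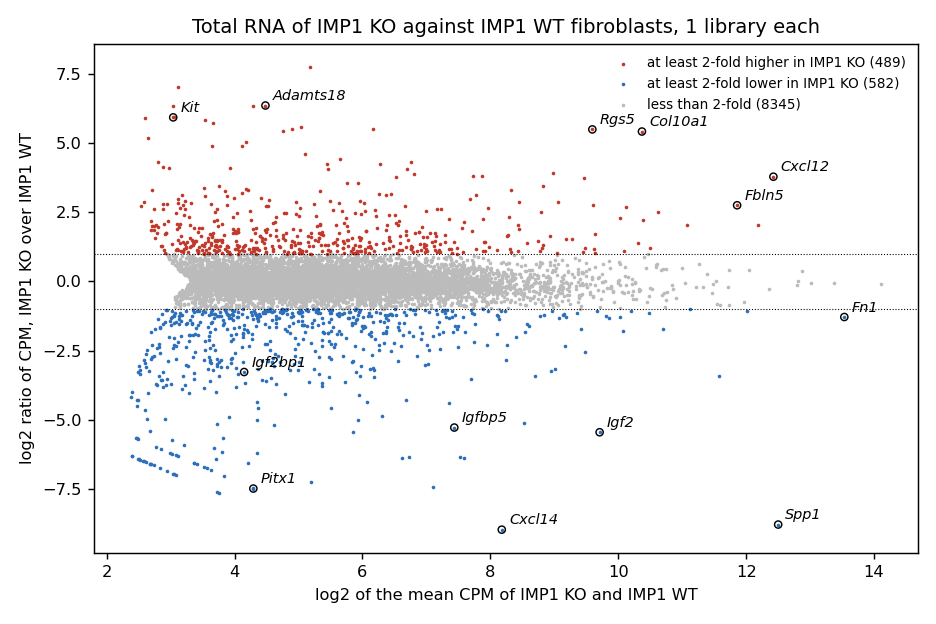
Log2 ratio of CPM (IMP1 KO over IMP1 WT, prior count 2) against the log2 mean CPM of both libraries, for the 9416 measured autosomal genes, each a point. The 489 genes in red are at least 2-fold higher and the 582 in blue at least 2-fold lower, dotted lines mark 2-fold, and the rows of points at low levels on the lower left are genes with 0 or 1 counts in KO.

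The genes lowest in IMP1 KO included secreted proteins that were abundant in both WT libraries. Spp1 (chromosome 5, 104435111 to 104441053), which encodes the matrix phosphoprotein osteopontin, had 26.0 CPM in IMP1 KO against 11567 CPM in IMP1 WT. It had 2673 CPM in IMP2 KO and 16351 CPM in IMP2 WT. Spp1 was therefore low in both KO libraries and lowest in IMP1 KO, where the CPM ratio to IMP1 WT was 0.00224 (95% counting interval 0.002 to 0.00251). Counting intervals cover counting error only. Cxcl14 (chromosome 13, 56288643 to 56296811), a chemokine of skin and connective tissue, had 1.01 CPM in IMP1 KO against 578 CPM in IMP1 WT, and 23.2 CPM in IMP2 KO against 1017 CPM in IMP2 WT. The platelet-type chemokine Ppbp had 0 counts in KO and 399 in WT, at least 107-fold lower when 3 counts are allowed to KO. Il1rl1, the receptor of interleukin 33, had 1.44 against 272 CPM, and Perp, a membrane protein of cell junctions and a p53 target, 0.338 against 72.8 CPM. Rgs17, a regulator of G-protein signalling, had 1 count in KO against 419 in WT. Msln, the mesothelial surface protein mesothelin, had 1 count against 348. Esm1, a secreted proteoglycan, the transcript U90926 and the neuropeptide gene Vip had 0 counts in KO against 243, 226 and 211 in WT. The 3 are at least 65.0-fold, 60.4-fold and 56.4-fold lower.

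Most of the genes highest in IMP1 KO were nearly silent in IMP1 WT, and some were abundant. Col10a1 (chromosome 10, 34389981 to 34397085), the collagen of hypertrophic cartilage, had 2587 CPM in IMP1 KO against 60.3 CPM in IMP1 WT, 42.9-fold (95% counting interval 40.1 to 45.9). It had 30.6 CPM in IMP2 KO and 92.2 CPM in IMP2 WT. Rgs5 (chromosome 1, 169655501 to 169695813), a G-protein regulator known as a pericyte marker, had 1513 CPM in IMP1 KO against 33.4 CPM in IMP1 WT. Its level was 15.5 CPM in IMP2 KO and 30.2 CPM in IMP2 WT, so IMP1 KO stood far above the other 3 libraries for both genes. Adamts18, a secreted metalloprotease, had 44.3 CPM against 0.407 CPM, Fmo2, a flavin monooxygenase, 38.6 against 0.339 CPM, and Kit, a receptor tyrosine kinase, 16.3 against 0.136 CPM. Sost, the Wnt inhibitor sclerostin, had 194 counts in KO and 1 count in WT, so its CPM ratio of 242 has a counting interval of 42.9 to 9601. The globin Cygb, the G-protein regulator partner Rgs7bp, the surface protein Cd200, the ion transport regulator Fxyd6 and the laminin chain Lama3 were also among the 15 highest, at 12.3 to 53.3 CPM in KO against 0.203 to 1.08 CPM in WT. Fbln7, a fibulin of the matrix, had 140 against 2.92 CPM, and Plppr4, a phospholipid phosphatase-related protein, 24.3 against 0.678 CPM. Fbln7 was also high in IMP2 KO, at 121 CPM against 3.80 CPM in IMP2 WT, whereas Plppr4 had 0.733 and 0.652 CPM there.

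In absolute terms, the chemokine Cxcl12 gained the most, reaching 10263 CPM in IMP1 KO against 744 CPM in IMP1 WT. It had 6299 CPM in IMP2 KO and 791 CPM in IMP2 WT, so both KO libraries lay above both WT libraries. The cytoskeletal adaptor Dpysl3 (2668 against 471 CPM), the nonmuscle myosin Myh10 (2198 against 475 CPM) and Gas6, a ligand of TAM receptors (1929 against 300 CPM), were among the 10 largest gains. In IMP2 KO against IMP2 WT, Gas6 was also higher (1333 against 401 CPM). Dpysl3 (92.1 against 386 CPM) and Myh10 (516 against 676 CPM) were lower there. Lox, which crosslinks collagen, was on that list with 8497 CPM in KO against 6508 CPM in WT, short of 2-fold. Among the 10 largest losses, Tagln, Actb, Itgb1 and Col5a2 did not reach 2-fold either, with log2 ratios of -0.84 to -0.75.

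The IGF axis was lower at several steps. IGF1 and IGF2 are growth factors that act through the receptor Igf1r and are held by binding proteins that are cut by proteases such as Pappa. IGF2 is cleared by the receptor Igf2r. Of 17 listed genes of the axis, 12 were measured, 8 were lower and 1 higher, with a median log2 ratio of -1.07. The counts of this list and of those below stand beside 6.18% lower and 5.19% higher over all measured genes. Igf2 (chromosome 7, 142650768 to 142666816), the imprinted fetal growth factor, had 37.2 CPM in IMP1 KO against 1636 CPM in IMP1 WT. It had 1019 CPM in IMP2 KO and 513 CPM in IMP2 WT, so IMP1 KO was the lowest library. The CPM ratio of IMP1 KO to IMP1 WT was 0.0227 (95% counting interval 0.0206 to 0.025). H19, the non-coding RNA beside Igf2, had 756 CPM in IMP1 KO against 1600 CPM in IMP1 WT. The receptors differed less, with 38.6 against 79.2 CPM for Igf1r and 195 against 408 CPM for Igf2r. Pappa had 34.4 against 126 CPM, the stanniocalcins Stc1 and Stc2, which inhibit that protease, 1.01 against 13.5 CPM and 2.54 against 13.9 CPM, and the receptor adaptor Grb14 31.5 against 150 CPM. Igf1 was the member on the other side, with 56.6 CPM in KO against 26.0 CPM in WT.

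The IGF-binding proteins had a median of -2.46 over 6 measured of 9 genes, with 4 lower and 1 higher. Igfbp5 had 8.54 CPM in IMP1 KO against 338 CPM in IMP1 WT, Igfbp4 14.6 against 312 CPM, and Igfbp2 33.1 against 383 CPM. The same genes stood at 7437, 2399 and 7893 CPM in IMP2 KO, against 379, 462 and 430 CPM in IMP2 WT. IMP1 KO was thus the lowest and IMP2 KO the highest of the 4 libraries for these binding proteins. Igfbp3 had 32.6 CPM in IMP1 KO against 86.1 CPM in IMP1 WT. Igfbp6, which prefers IGF2, went the other way with 98.2 against 42.6 CPM.

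Among 18 messages described as IMP1 ligands in the literature, 13 were measured, 6 were lower and 0 higher, with a median of -0.84. The WT libraries differed for these genes too, with a median of -0.41 for IMP2 WT over IMP1 WT, and IMP1 KO over IMP2 WT also gave -0.41. Ptgs2, the inducible prostaglandin synthase, had 71.6 CPM in IMP1 KO against 760 CPM in IMP1 WT. The hyaluronan receptor Cd44 had 190 against 963 CPM, and Hmga2, a chromatin protein of growing embryonic cells, 103 against 512 CPM. All 3 were also lower in IMP2 KO than in IMP2 WT, at 6.72 against 474 CPM, 42.6 against 649 CPM and 35.4 against 247 CPM. Actb, the beta-actin message with the described zipcode, had 2439 against 4365 CPM, and Ctnnb1, encoding beta-catenin, 764 against 560 CPM. Of 17 oncofetal genes that carry let-7 sites, 9 were measured and 3 were lower, namely Igf2bp1 itself, Hmga2 and Hmga1, the last with 14.6 against 129 CPM. The 18 measured partners of IMP granules all stayed within 2-fold (median -0.11).

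Transcription factors of limb and body position showed some of the largest ratios. Of 82 listed, 40 were measured, 19 were lower and 10 higher, and the median was -0.77 (-0.77 also with members at 0 counts set to 3 counts). Pitx1 (chromosome 13, 55825044 to 55836190), which sets hindlimb identity, had 1 count in IMP1 KO against 577 in IMP1 WT, a CPM ratio of 0.00216 (95% counting interval 5e-05 to 0.0121). Tbx4, the T-box gene of the hindlimb, and Tbx5, that of the forelimb, had 0 counts in KO against 251 and 245 in WT, which is at least 67.1-fold and 65.5-fold lower. Markers of both limb pairs were therefore at or near 0 in the same library. Lmx1b, which sets the dorsal side of the limb, and the mesenchymal factors Six2 and Zic1 had 0 counts against 155, 196 and 180. They are at least 41.4-fold, 52.4-fold and 48.1-fold lower. The LIM homeobox gene Lhx9 had 1 count against 574, and Pax1, a factor of the sclerotome and shoulder girdle, 1 against 303. The bHLH factor Sim2 had 0 counts against 388 in IMP1 WT, and 95.04 CPM in IMP2 KO against 10.3 CPM in IMP2 WT.

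Several of these factors were low in both knockouts, but not all. Pitx1, Tbx4, Tbx5, Lhx9 and Lmx1b were at 1.16 to 4.52 CPM in IMP2 KO against 12.8 to 48.2 CPM in IMP2 WT. By contrast, Pax1 (16.4 against 16.1 CPM), Zic1 (15.8 against 11.9 CPM) and Irx2 (23.9 against 13.1 CPM) were not lower in IMP2 KO than in IMP2 WT. Irx2 had 1 count in IMP1 KO and 10.9 CPM in IMP1 WT. Tbx15, a factor of trunk and limb mesenchyme, had 5.07 CPM in IMP1 KO against 153 CPM in IMP1 WT, while Sox9, the cartilage factor, had 2.79 against 21.8 CPM and the tendon factor Scx 3.72 against 27.1 CPM. The factors higher in IMP1 KO differed by smaller ratios. Foxd1, a factor of kidney and facial mesenchyme, had 87.2 CPM against 12.0 CPM, Alx4, which patterns limb and skull, 39.1 against 5.83 CPM, and En1, a homeobox gene of dermal precursors, 31.8 against 6.65 CPM. The Hox cofactor Meis1 (59.8 against 19.9 CPM), Foxf1 (37.9 against 13.4 CPM) and Foxc1 (197 against 80.6 CPM) were also higher.

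Hox genes of the high-numbered groups were nearly absent from IMP1 KO. They number 39, in 4 clusters, and within a cluster low-numbered genes act towards the head and groups 10 to 13 towards the tail and the far limb. Of 19 measured, 6 were lower and 3 higher, with a median of 0.27. The 12 genes of groups 10 to 13 summed to 52 counts or 4.40 CPM in IMP1 KO, against 1371 counts or 93.0 CPM in IMP1 WT. Each had a lower CPM in KO, but Hoxb13 (0 against 3 counts) and Hoxc12 (0 against 1 count) lie within what a count of 0 allows. Only 3 of these 12 were measured, and the grouping was chosen after the values were seen. Hoxa10 had 0.254 against 36.6 CPM, Hoxc10 2.87 against 23.5 CPM, and Hoxd13, of the hand and foot plate, 0 counts against 174, at least 46.5-fold lower. The 27 genes of groups 1 to 9 summed to 708 CPM in KO and 475 CPM in WT. Hoxc8 had 156 against 49.3 CPM, Hoxa3 31.9 against 12.0 CPM, and Hoxb3 15.5 against 5.56 CPM. The other 3 lower calls were in these groups as well, with Hoxa9 at 10.7 against 24.2 CPM, Hoxb4 at 5.41 against 12.7 CPM and Hoxd8 at 2 counts against 238. The Hoxd cluster as a whole was nearly empty in IMP1 KO, with 2 counts over its 9 genes against 617 counts in IMP1 WT. In IMP2 KO, groups 10 to 13 summed to 8.74 CPM and groups 1 to 9 to 139 CPM, against 137 and 412 CPM in IMP2 WT. Both sums were thus lower in IMP2 KO than in IMP2 WT, whereas in IMP1 KO the sum of groups 10 to 13 was lower and that of groups 1 to 9 higher.

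**Figure D2:**
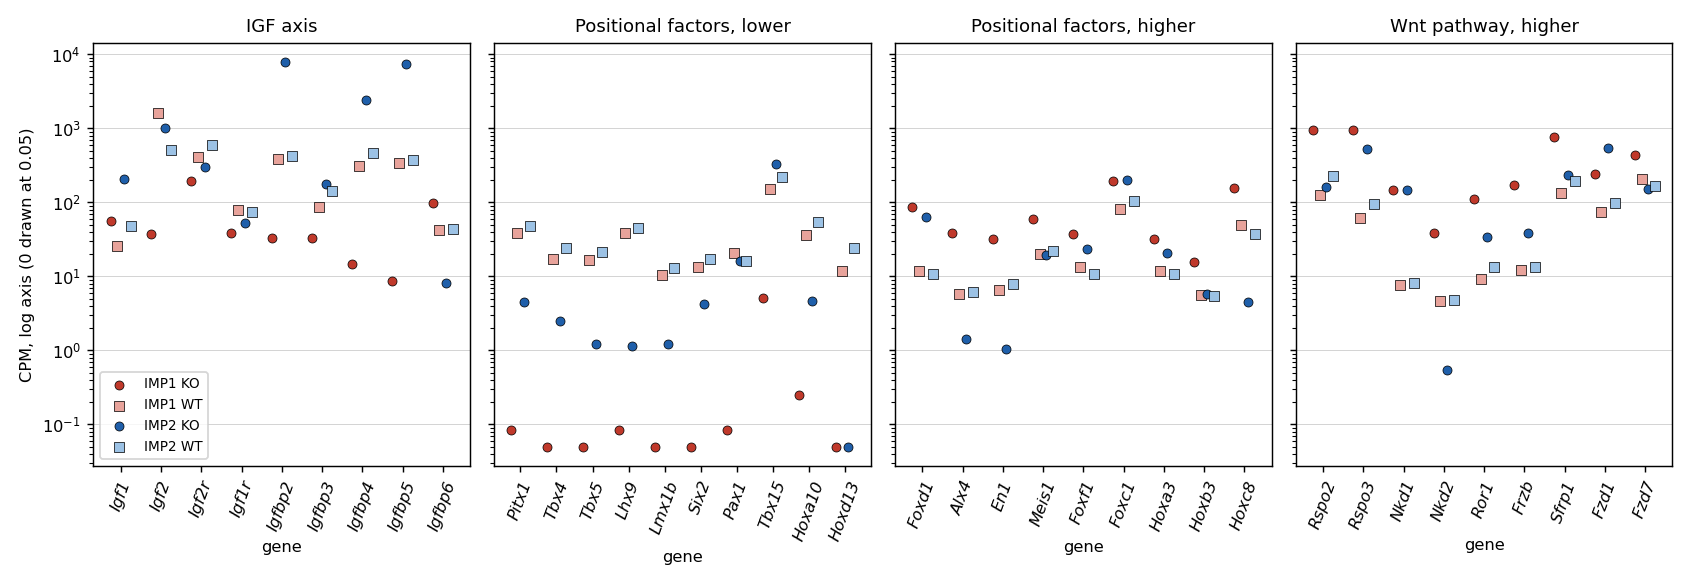
CPM on a log axis of selected measured genes in the 4 total RNA libraries (circles KO, squares WT, red shades IMP1, blue shades IMP2), with 0 drawn at 0.05. Igfbp2, Igfbp4 and Igfbp5 are lowest in IMP1 KO and highest in IMP2 KO, and the lower positional factors other than Tbx15 lie at 0 to 0.254 CPM in IMP1 KO while the WT squares lie close together.

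The extracellular matrix differed in both directions. Of 59 matrix glycoproteins and proteoglycans, 52 were measured, 11 were higher and 12 lower (median -0.09), and of 25 collagens 19 were measured, 3 higher and 3 lower (median -0.14). Fn1, encoding the adhesive glycoprotein fibronectin, had 6902 CPM in KO against 16839 CPM in WT, and Col3a1, a fibrillar collagen, 782 against 2552 CPM. Efemp1, a fibulin-like protein, had 4.31 against 363 CPM, and Has2, which makes hyaluronan, 2.45 against 33.2 CPM. On the higher side, the elastic fibre protein Fbln5 had 6469 against 959 CPM, the periosteal protein Postn 3472 against 842 CPM and the fibril-associated collagen Col12a1 7537 against 1814 CPM. Smoc2, a calcium-binding matrix protein, had 1317 against 99.6 CPM, Thbs2, a thrombospondin, 1725 against 352 CPM, and Col14a1 82.7 against 4.27 CPM. Abundant matrix messages thus lay on both sides. The 20 measured enzymes of collagen crosslinking and processing included 1 higher (Plod2, 442 against 195 CPM) and 1 lower (Pcolce2, 2.71 against 21.97 CPM). Both counts were near the shares over all measured genes, 5.19% higher and 6.18% lower.

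Genes of plasminogen activation were lower. Of 40 matrix proteases and inhibitors, 26 were measured, 8 were higher and 6 lower (median 0.52, and 0.13 against IMP2 WT). The urokinase gene Plau had 46.0 CPM in KO against 250 CPM in WT, its receptor Plaur 30.9 against 200 CPM, and the tissue activator Plat 27.7 against 119 CPM. Serpine2, a protease inhibitor of the matrix, had 103 against 931 CPM. Both activators and the receptor therefore lay on the same side. The higher members were metalloproteases, among them Adamts2, which trims procollagen (393 against 44.7 CPM), and Mmp11 (184 against 53.2 CPM). Of 41 adhesion receptors 29 were measured, with 9 lower and 2 higher (median -0.22). Itga6, a laminin receptor chain, had 5.83 against 76.4 CPM, Itga5, the fibronectin receptor chain, 318 against 1043 CPM, and the mesenchymal cadherin Cdh11 1223 against 375 CPM.

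Genes of pericytes, the contractile cells around small vessels, included some of the highest ratios. Of 25 smooth muscle and pericyte genes, 23 were measured, 6 higher and 3 lower (median 0.44). Besides Rgs5, the potassium channel genes Kcnj8 and Abcc9, which form 1 channel in pericytes, had 14.96 against 0.746 CPM and 11.9 against 1.08 CPM. Notch3, the Notch receptor of mural cells, had 124 against 24.1 CPM, and Pdgfrb, the PDGF receptor of mural cells and fibroblasts, 553 against 209 CPM. Other genes of the list did not go that way, with 1.78 against 22.8 CPM for desmin (Des), 98.2 against 216 CPM for Cspg4 and 5.75 against 16.1 CPM for Anpep. Of 32 cartilage and bone genes 10 were measured, 5 lower and 3 higher (median -0.97). Comp, a cartilage matrix protein, had 1.099 against 39.6 CPM, and Hapln1, which links hyaluronan to proteoglycan, 0.254 against 12.1 CPM. Pth1r, the parathyroid hormone receptor of growing cartilage, was higher beside Col10a1, with 87.3 against 14.9 CPM. The cartilage matrix gene Matn3 (10.7 against 1.36 CPM) was the other higher member, and Sox9, Spp1 and the cartilage collagen Col2a1 (161 against 341 CPM) were the other lower ones.

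Inflammatory messages lay on both sides. Of 56 chemokines, cytokines and related factors, 20 were measured, 10 were lower and 6 higher (median -1.09). Il1rn, the interleukin 1 receptor antagonist, had 2.198 CPM in IMP1 KO against 195 CPM in IMP1 WT. It had 561 CPM in IMP2 KO against 361 CPM in IMP2 WT. Cxcl5, a neutrophil chemokine, had 0.423 against 27.9 CPM in the IMP1 libraries. Tnfrsf11b, the osteoclast-inhibiting decoy receptor, had 55.5 against 220 CPM, and its target Tnfsf11 1.78 against 18.8 CPM. On the higher side, the acute-phase gene Saa3 had 58.6 against 1.15 CPM. Of 9 measured prostaglandin genes 3 were lower and 0 higher (median -0.20), namely Ptgs2, the prostacyclin synthase Ptgis (5.66 against 52.96 CPM) and the receptor Ptger4 (2.71 against 14.2 CPM). Interferon-stimulated genes had a median of 0.63, with 5 higher and 2 lower of 23 measured, led by Xaf1 (21.0 against 1.90 CPM), but IMP2 WT stood above IMP1 WT for the same genes, with a median of 0.53. Against IMP2 WT the IMP1 KO median for these genes was 0.18. MHC class I genes held 4 lower of 9 measured and 0 higher (median -0.06), with H2-K1 at 8.12 against 53.4 CPM.

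Wnt pathway genes were higher more often than lower. Wnt ligands bind Frizzled and LRP receptors, R-spondins strengthen the signal by binding LGR receptors, and Nkd and secreted Frizzled-related proteins restrain it. Of 59 listed genes 30 were measured, 11 higher and 5 lower, with a median of 0.49. The R-spondins Rspo3 and Rspo2 had 947 against 62.4 CPM and 936 against 127 CPM. The restraining genes Nkd1 (147 against 7.59 CPM), Nkd2 (38.1 against 4.61 CPM), Sfrp1 (757 against 133 CPM) and Frzb (171 against 12.3 CPM) were higher as well, so members of opposite function lay on the same side. The receptors Ror1 and Fzd1 had 112 against 9.29 CPM and 240 against 74.5 CPM. The lower members were the ligands Wnt10a (1 count against 303 in WT) and Wnt5a (48.1 against 107 CPM), the secreted Dkk3 (4.40 against 381 CPM) and Dkk2 (12.1 against 28.1 CPM), and the receptor Lgr5 (1.61 against 11.5 CPM).

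Other signalling lists were mixed. Of 16 measured Notch and hedgehog genes, 6 were higher and 1 lower (median 0.20), with the Notch ligand Jag1 at 153 against 29.2 CPM and the hedgehog effector Gli2 at 46.4 against 8.27 CPM. Of 46 measured TGF-beta and BMP genes, 7 were higher and 6 lower (median -0.00). Bmp4, a BMP ligand, had 827 against 76.2 CPM, while the endothelial-type coreceptor Eng had 3.30 against 41.6 CPM. Of 21 measured growth factor ligands and receptors of the FGF, PDGF and EGF families, 6 were lower and 3 higher (median -0.06). The EGF family ligands Ereg and Hbegf had 11.2 against 108 CPM and 29.3 against 231 CPM, Fgf10, the limb bud signal, 19.6 against 99.0 CPM, and Fgf18, a skeletal signal, 65.8 against 2.58 CPM.

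Immediate early genes, which respond within minutes to serum and growth factors, were lower. Of 29, 24 were measured, 13 were lower and 1 higher (median -1.05). Between the WT libraries the median was -0.30 for IMP2 WT over IMP1 WT, and IMP1 KO over IMP2 WT gave -0.68. In IMP2 KO over IMP2 WT, 9 of the 24 were lower and 1 higher (median -0.75), and 6 were lower in both knockouts. Fosl1 and Jun, subunits of the factor AP-1, had 5.24 against 66.6 CPM and 25.7 against 148 CPM, Egr1 52.4 against 191 CPM and the orphan receptor Nr4a1 30.5 against 110 CPM. Feedback inhibitors of the MAPK pathway were on the same side, with Dusp5 at 21.2 against 79.7 CPM and Spry2 at 29.8 against 68.6 CPM. Klf2 was the exception, with 92.0 against 32.3 CPM. The labels give 10% FBS for both cultures. The time between feeding and harvest is not given, and it and the cell density are not known to match between the cultures.

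Part of the glycolysis and hypoxia genes were lower in both knockouts. Of 36 listed, 27 were measured in the IMP1 libraries, and 8 were at least 2-fold lower and 0 higher in IMP1 KO. Of the same 27, 17 were lower and 1 higher in IMP2 KO over IMP2 WT, and all 8 were among the 17. Over all genes measured in each comparison, 6.18% were lower in IMP1 KO and 7.39% lower in IMP2 KO. The share of all genes at least 2-fold lower in both was not counted. The median was -0.58 for IMP1 KO and -1.19 for IMP2 KO, each against its own WT. The lactate exporter Slc16a3 had 6.09 CPM in IMP1 KO against 129 CPM in IMP1 WT, and 7.76 CPM in IMP2 KO against 157 CPM in IMP2 WT. The glucose transporter Slc2a1 had 45.0 against 176 CPM, and 47.2 against 183 CPM. Both genes lay lower in each KO library than in either WT library, an order that was not counted over all measured genes. The enzymes Eno1 (58.4 against 303 CPM), Pkm (532 against 1330 CPM), Ldha (406 against 903 CPM), Hk2 (20.2 against 43.3 CPM) and Aldoa (523 against 1098 CPM), and Bnip3, a hypoxia-induced mitophagy protein (14.8 against 36.8 CPM), made up the rest. Many of these genes are known targets of the hypoxia-inducible factors, whose binding core is ACGTG or GCGTG. Only the form ACGTG was searched here. Eno1 has processed copies in the genome and its counts are uncertain to that degree. Promoters from RefSeq (GRCm38.p6, 250 bases before to 50 after the start site) are shown for 4 of the 8 genes. Where a gene has more than 1 promoter window, the one with the most ACGTG matches was taken. Of those shown, 3 have matches, and the Eno1 window has none but contains GCGTG. They are written 5′ to 3′ on the strand of the gene. Each match on either strand is in capitals (ACGTG or its complement CACGT, overlapping ones joined, as in the E-box CACGTG).
Slc16a3, chr11:120948817-120949116, plus strand: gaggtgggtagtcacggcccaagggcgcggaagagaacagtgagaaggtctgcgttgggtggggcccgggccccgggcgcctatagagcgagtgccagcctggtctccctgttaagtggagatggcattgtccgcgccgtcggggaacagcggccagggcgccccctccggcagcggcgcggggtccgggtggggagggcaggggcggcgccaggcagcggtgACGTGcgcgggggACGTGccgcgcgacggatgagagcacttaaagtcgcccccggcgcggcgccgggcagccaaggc
Slc2a1, chr4:119108495-119108794, plus strand: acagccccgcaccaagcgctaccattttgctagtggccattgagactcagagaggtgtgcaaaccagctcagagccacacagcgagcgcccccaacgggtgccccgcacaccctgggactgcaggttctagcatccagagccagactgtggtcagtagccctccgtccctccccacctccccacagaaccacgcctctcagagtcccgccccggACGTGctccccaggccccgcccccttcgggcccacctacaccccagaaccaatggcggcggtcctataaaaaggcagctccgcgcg
Ldha, chr7:46845554-46845853, plus strand: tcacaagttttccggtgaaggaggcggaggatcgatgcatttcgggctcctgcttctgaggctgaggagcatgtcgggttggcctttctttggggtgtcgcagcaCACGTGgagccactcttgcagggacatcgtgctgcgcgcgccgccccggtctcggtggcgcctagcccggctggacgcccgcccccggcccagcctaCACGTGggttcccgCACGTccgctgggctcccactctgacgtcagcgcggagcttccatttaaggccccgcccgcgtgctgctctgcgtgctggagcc
Eno1, chr4:150236458-150236757, plus strand: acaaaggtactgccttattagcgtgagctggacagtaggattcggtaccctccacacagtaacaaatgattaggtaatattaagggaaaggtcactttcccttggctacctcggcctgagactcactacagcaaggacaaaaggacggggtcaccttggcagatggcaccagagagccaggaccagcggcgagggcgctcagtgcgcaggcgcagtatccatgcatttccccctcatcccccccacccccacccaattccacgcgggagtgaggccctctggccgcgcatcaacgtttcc
The form ACGTG was found in a promoter of 7 of the 8 lower genes (87.5%) and of 10 of the 17 other measured genes of the list with a promoter (58.8%). It was found for 30.6% of the 7300 measured genes with a promoter and for 21.8% of all 27025 genes in the table. Counted by promoter window, since genes have 1 or more, it was in 8 of 14 windows of the lower genes (57.1%), 12 of 26 of the others (46.2%) and 26.2% of the 9405 windows of measured genes. A match describes letters and not binding.

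Several large housekeeping lists had no gene past 2-fold. These were cell cycle and DNA replication (55 measured, median 0.07), oxidative phosphorylation (69, -0.06), proteasome subunits (38, -0.22), translation factors (45, -0.20), endoplasmic reticulum chaperones (29, -0.41) and cholesterol and fatty acid synthesis (34, -0.07). Cytosolic ribosomal proteins held 53 measured genes, among them 3 lower and 0 higher (median -0.28). The part that was lower was near the 6.18% of all measured genes. Rpl34 had 3.55 CPM in IMP1 KO against 118 CPM in IMP1 WT and 105 to 122 CPM in the IMP2 libraries. Ribosomal protein genes share reads with many pseudogenes, so this value is uncertain. Heat shock protein genes held 2 lower of 18 measured and 0 higher (median -0.25).

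Other lists differed in both directions. Of 31 measured p53 and senescence genes 6 were lower and 2 higher (median -0.53), with the cell cycle inhibitor Cdkn1a at 341 against 826 CPM and its relative Cdkn1b at 91.0 against 40.1 CPM. Of 22 measured imprinted genes 7 were lower and 2 higher (median 0.19), the higher ones being Plagl1 (316 against 70.9 CPM) and Dlk1 (322 against 149 CPM). Of 34 measured axon guidance genes 10 were lower and 5 higher (median 0.08), with the semaphorin Sema3c at 27.4 against 224 CPM and the semaphorin receptor Nrp2 at 391 against 82.0 CPM. Of 20 measured retinoid and steroid genes 3 were lower and 2 higher (median 0.00), and the retinoic acid carriers Crabp1 and Crabp2 had 1.18 against 47.7 CPM and 0.423 against 40.6 CPM. Of 26 measured Nrf2 and glutathione genes 4 were lower and 3 higher (median -0.23), including heme oxygenase, Hmox1, at 116 against 434 CPM. Of 39 measured actin, tubulin and filament genes 5 were lower and 1 higher (median -0.22), including nestin, Nes, at 66.9 against 241 CPM. Of 22 measured fibroblast and mesenchyme genes 5 were higher and 5 lower (median 0.07), and long non-coding RNAs held 13 measured genes with 2 lower and 0 higher (median 0.02).

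**Figure D3:**
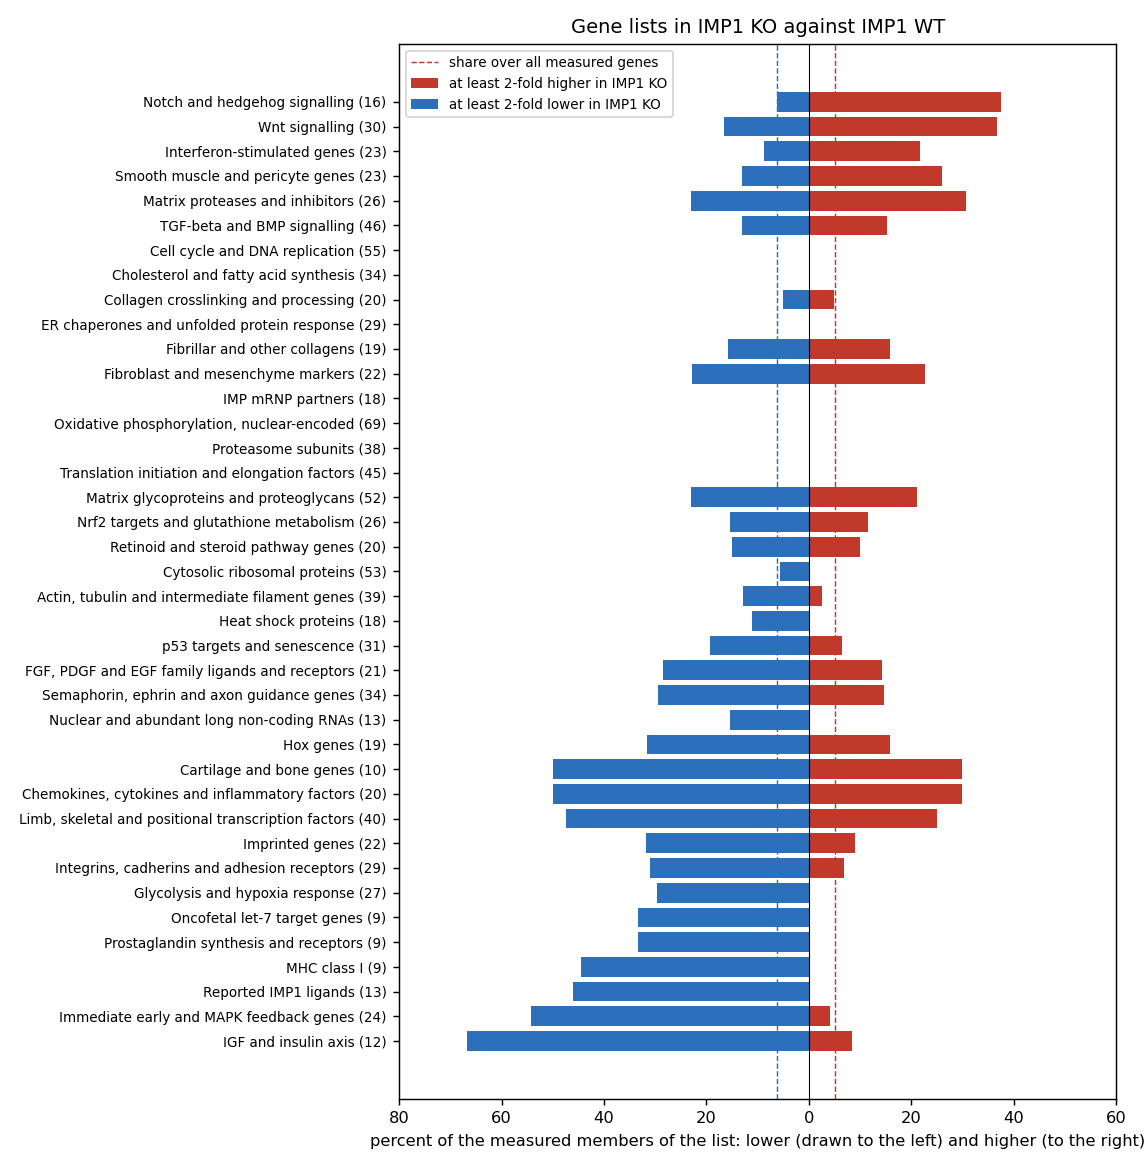
Percent of the measured members of each list with at least 9 measured (number in brackets) at least 2-fold lower in IMP1 KO, drawn to the left in blue, and at least 2-fold higher, drawn to the right in red. Dashed lines mark the shares over all measured genes, 6.18% lower and 5.19% higher. The IGF and insulin axis has the longest blue bar and 6 lists have no bar in either direction besides the IMP partners.

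Markers of other cell types were mostly near 0. The 22 macrophage markers summed to 14.6 CPM in IMP1 KO and 48.8 CPM in IMP1 WT, with 13 of them at 0 in KO and 1 in WT, against 525 CPM in IMP2 KO and 63.3 CPM in IMP2 WT. Lymphocyte, erythroid and hepatocyte lists summed to 1.099 to 1.86 CPM in IMP1 KO and 0.339 to 2.51 CPM in IMP1 WT. Of 16 endothelial markers 7 were at 0 in KO and 2 in WT, among them Cdh5 and Pecam1 at 0 in KO, and 88.5% of the sum of 118 CPM in KO came from Flt1, at 104 against 29.1 CPM. Of 10 adipocyte markers 5 were measured and all 5 were higher, including the fat cell regulator Pparg (23.8 against 8.61 CPM) and the lipase Lpl (80.1 against 13.1 CPM), while Adipoq, Plin1, Cidec and Retn were at 0 in both. The summed adipocyte markers came to 152 CPM in IMP1 KO and 36.3 CPM in IMP1 WT. They came to 254 CPM in IMP2 KO and 34.5 CPM in IMP2 WT, so the sum was higher in both knockouts. Skeletal muscle markers summed to 137 CPM in KO and 363 CPM in WT, mostly from the actin gene Acta1 (111 against 322 CPM). Mesothelial markers summed to 13.9 and 70.2 CPM, and epithelial ones to 8.88 and 47.7 CPM, both with Krt19 (1.78 against 38.9 CPM) as the largest part in WT. Cardiac muscle markers summed to 2.37 and 22.6 CPM, neuronal ones to 76.9 and 95.6 CPM, Schwann cell ones to 5.83 and 16.004 CPM, and mast cell ones to 21.6 and 0.339 CPM, the last through Kit. The part of any such cells in the gene lists above was not tested.

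Whole chromosomes also differed between the libraries. Genes of chromosome 3 (483 measured) had a median log2 ratio of -0.29, those of chromosome 4 (613 measured) -0.35, and those of chromosome 10 (498 measured) 0.29. The other 16 autosomes had medians of -0.05 to 0.06. On chromosomes 3 and 4 every 20 Mb window with at least 20 measured genes had a median below 0 (8 of 8 on each), and on chromosome 10 all 7 lay above 0. Of the genes of chromosomes 3, 4 and 10, 77.4%, 81.7% and 25.7% had ratios below 0, against 50.9% on the other autosomes. The shifts ran along the whole length and were small per gene, 2 to the power of the median being 0.82 for chromosome 3, 0.786 for chromosome 4 and 1.22 for chromosome 10. They were also present against IMP2 WT, with medians of -0.27, -0.34 and 0.31. Between the WT libraries no autosome had a median beyond -0.03 to 0.03, and for IMP2 KO over IMP2 WT the medians were -0.11 to 0.03. Genes of these chromosomes named above include Col10a1, Perp, Rgs17 and Vip (chromosome 10), Postn (chromosome 3), and Slc2a1 and Eno1 (chromosome 4). Without the 3 chromosomes, 398 genes (5.09%) were higher and 460 (5.88%) lower, a choice made after the medians were seen.

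**Figure D4:**
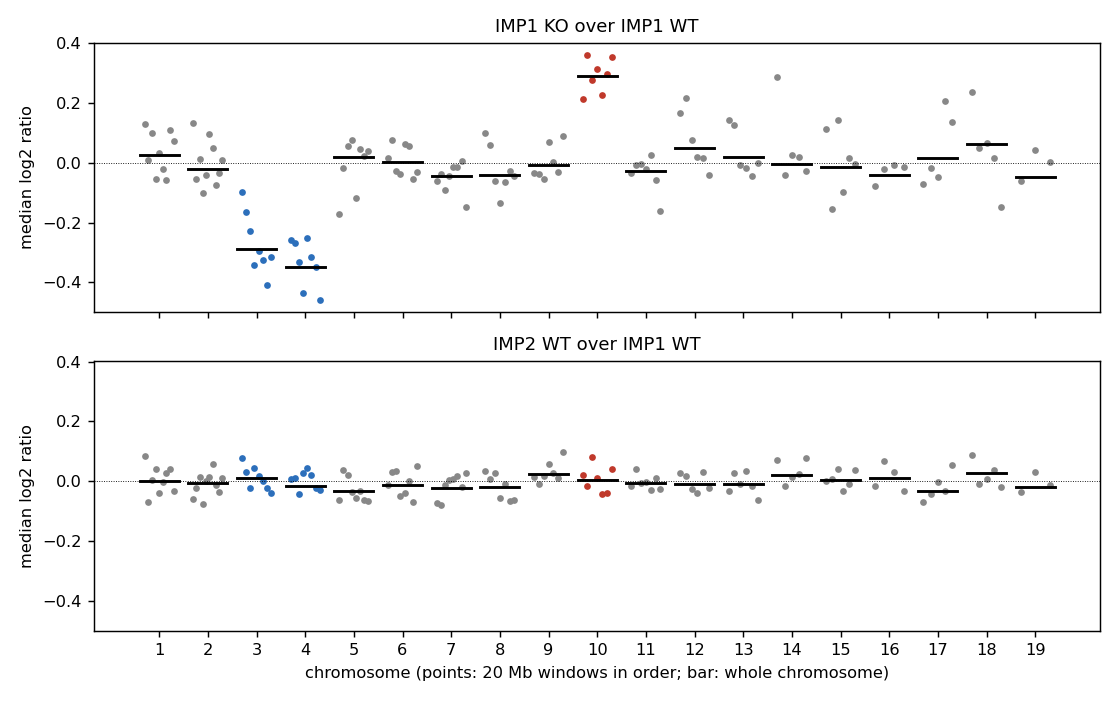
Median log2 ratio of measured genes per autosome (black bars) and per 20 Mb window in order along the chromosome (points, windows with at least 20 genes), for IMP1 KO over IMP1 WT above and IMP2 WT over IMP1 WT below. Chromosomes 3 and 4 (blue) lie below 0 and chromosome 10 (red) above 0 in all their windows in the upper panel, and all autosomes lie near 0 in the lower panel.

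Each of the 4 total RNA libraries was also set against the other 3. Of 9916 genes with at least 10 CPM in 1 of them, IMP1 KO stood at least 2-fold above all others for 210 (2.12%) and below all others for 430 (4.34%). IMP2 KO did so for 478 and 438 genes, while IMP1 WT did for 20 and 9, and IMP2 WT for 2 and 6. Both KO libraries thus stood apart from the WT libraries and from each other. Genes furthest below all others in IMP1 KO included Cacna2d3, a calcium channel subunit, with 0 counts against 191 in IMP1 WT and 49.2 CPM in IMP2 KO, and Armh4, with 0 counts against 168 in IMP1 WT and 11.7 CPM in IMP2 KO.

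The IMP1 pull-down was used as an independent readout, to ask whether genes that differed in IMP1 KO were recovered with IMP1. The IP libraries are labelled as fibroblasts, and Col1a1 had 3432 to 5982 CPM across the 9. Reads outside genes were 7.43% to 7.67% of records in IMP1 IP, against 24.2% to 25.2% in IgG IP. The RNA of all 9 also differed from the total RNA libraries. Igf2 had at most 0.966 CPM in the 9 IP libraries against at least 37.2 CPM in the 4 total RNA libraries, H19 at most 2.39 against at least 756 CPM, and Met, the HGF receptor, at least 703 against at most 35.7 CPM. The IP and total RNA libraries therefore do not describe the same levels, and Igf2 and H19 were near 0 in all the IPs.

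Of 9044 autosomal genes measured in total RNA and tested in the IPs, 3913 (43.3%) were higher and 2071 (22.9%) lower in IMP1 IP than in IgG IP (edgeR quasi-likelihood test, Benjamini-Hochberg adjusted p under 0.05, n = 3 libraries each). Of the 505 of these genes that were lower in IMP1 KO, 172 (34.1%) were higher in IMP1 IP. Of the 416 that were higher in IMP1 KO, 125 were. Both shares were below the 43.3% of the whole set. Expression level moved with the pull-down as well, with a median of 57.4 CPM in IMP1 WT among the 905 genes highest in IMP1 IP over IgG IP, and 28.8 CPM among the 905 lowest, and its part in these shares was not tested. Read from the other side, of the 3913 genes higher in IMP1 IP, 172 (4.40%) were lower and 125 (3.19%) higher in IMP1 KO, beside 5.58% and 4.60% of all 9044. Across the 9044 genes the IP log2 fold change and the KO log2 ratio had a Spearman rho of -0.0055, which is a description. In 10 equal groups of genes by the IP fold change, the median KO ratio stayed between -0.05 and 0.01. Of 56 genes at least 2-fold higher in IMP1 IP, 3 were lower and 1 higher in KO. Against IMP2 IP in place of IgG, 26.7% of the genes lower in KO and 39.2% of those higher in KO were higher in IMP1 IP, beside 34.5% of all, and 48.4% of all were lower.

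**Figure D5:**
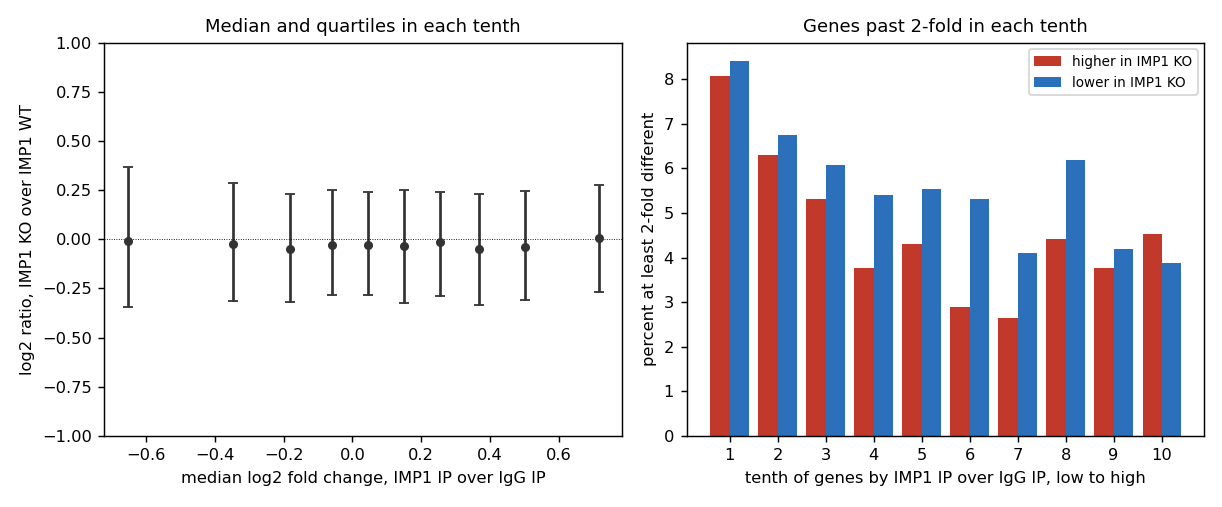
Genes measured in both data sets, in 10 equal groups by log2 fold change of IMP1 IP over IgG IP. Left, median log2 ratio of IMP1 KO over IMP1 WT in each group (points) with quartiles (bars), which stays between -0.05 and 0.01. Right, percent of genes in each group at least 2-fold higher (red) or lower (blue) in IMP1 KO.

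The genes past both thresholds with the largest pull-down fold changes are given with their values. Ptx3, a pattern recognition protein of inflammation, had 129 ± 4.57 CPM in IMP1 IP against 59.5 ± 0.909 CPM in IgG IP (SD, n = 3), a log2 fold change of 1.12 (SE 0.0519, edgeR adjusted p = 4.36e-14). In total RNA it had 15.3 CPM in IMP1 KO against 79.1 CPM in IMP1 WT. Met had 1696 ± 32.4 CPM in IMP1 IP against 893 ± 11.9 CPM in IgG IP (log2 fold change 0.93, edgeR adjusted p = 1.49e-14), with 6.76 CPM in IMP1 KO against 22.8 CPM in IMP1 WT. The chromatin reader Jade1, with 36.3 against 85.2 CPM in total RNA, had a pull-down log2 fold change of 0.89. Tll1, a procollagen protease, and Krt19 completed the genes lower in KO, but both stood below 2 CPM in every IP library. Among genes higher in KO, Selenop, a selenium carrier, had 21.1 ± 0.182 CPM in IMP1 IP against 7.14 ± 1.11 CPM in IgG IP (log2 fold change 1.57, edgeR adjusted p = 4.74e-11), with 59.3 CPM in IMP1 KO against 20.1 CPM in IMP1 WT. The proprotein convertase Pcsk6 (582 against 58.0 CPM in total RNA), the membrane enzyme Enpp4 (29.4 against 10.9 CPM) and the tetraspanin Tspan2 (198 against 73.3 CPM) had pull-down log2 fold changes of 0.84 to 0.89. These examples were picked from each side, so they do not show how recovered messages divide. Of all 3913 genes higher in IMP1 IP, 172 (4.40%) were lower and 125 (3.19%) higher in IMP1 KO, beside 5.58% and 4.60% of all 9044. The described ligand Actb was lower in IMP1 IP than in IgG IP (log2 fold change -0.22, edgeR adjusted p = 9.17e-07), and its total RNA ratio was within 2-fold. Other described ligands differed among themselves. Cd44 and Myc were higher in IMP1 IP (log2 fold changes 0.25 and 0.51, edgeR adjusted p = 3.17e-06 and 1.06e-08). Hmga2 was lower (-0.65, edgeR adjusted p = 1.2e-09), and Ptgs2 did not pass the threshold (0.10, edgeR adjusted p = 0.0621). Each of them was at least 2-fold lower in IMP1 KO, Myc with 32.0 against 98.5 CPM.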

How the data were processed

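Mouse total RNA and IP libraries were deposited as raw counts per gene, which the authors made with STAR and HTSeq against mm10, per the submitters' processing notes. Whether counting used strand was not given in the sources used here. Overlapping, antisense and near-identical genes therefore could not be told apart. The last 5 lines of each file (reads in no gene, 4.429% to 5.1% of records in total RNA, ambiguous or not unique reads) were removed, leaving 43629 genes. Symbols were matched for 42462, and chromosomes through RefSeq (GRCm38.p6) for 33284, of which 30887 are autosomal. In the count table of the 4 total RNA libraries, gene counts of 11430002 to 17225308 were scaled by TMM (edgeR 4.0.16, R 4.3.3). Log2 ratios used a prior count of 2, and genes needed 10 CPM in 1 of the 2 libraries. Intervals of ratios are exact conditional binomial at 95%. The 9 IP libraries (11840189 to 21756430 gene counts) entered 1 edgeR quasi-likelihood fit, 2-sided, with a common coefficient of variation of 3.84%. No label says that IP libraries of one group are separate cultures, so IP p-values measure the spread between these libraries, which may be technical. DESeq2 1.42.0 and other scalings, filters, prior counts and wild types were alternatives.

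Named genes were the 15 highest and 15 lowest ratios, the 10 largest gains and losses of CPM, the 10 furthest above or below the other 3 total RNA libraries, neighbours of Igf2bp1, the leading members of each list, markers, and the 5 genes on each side with the highest pull-down; some of these are not reported here. Members and lists were chosen with earlier results of these data known. The steps were tested on simulated data.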

Additional observations from a re-analysis of the deposited data

Results flagged for a closer look

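Of 62 named and listed genes at least 4-fold different in both knockouts, 14 (22.6%) went in opposite directions in IMP1 KO over IMP1 WT and in IMP2 KO over IMP2 WT, and 48 in the same direction. Over all 9416 measured genes, 159 differed 4-fold in both, 27 in opposite directions and 132 in the same. With 1 library per genotype the difference between the knockouts was not tested. Log2 ratios are given with IMP1 KO over IMP1 WT first and IMP2 KO over IMP2 WT after it. Genes of growth factor binding and growth arrest that were lower in IMP1 KO and higher in IMP2 KO were Igfbp5 (-5.28 and 4.29), Igfbp4 (-4.40 and 2.38), Igfbp2 (-3.53 and 4.20) and the cell cycle inhibitor Cdkn1c (-2.14 and 3.02). Those of cartilage, matrix and inflammation were Hapln1 (-4.99 and 3.79), Sox9 (-2.91 and 3.46), the dermal matrix protein Dpt (-2.87 and 3.75) and Ptx3 (-2.36 and 4.07). Sim2, a transcription factor at 0 counts in IMP1 KO, had -7.63 and 3.20. Genes higher in IMP1 KO and lower in IMP2 KO were the positional factors En1 (2.24 and -2.80) and Alx4 (2.72 and -2.03), the Wnt inhibitor Nkd2 (3.01 and -2.85), the cytoskeletal adaptor Dpysl3 (2.50 and -2.07) and the acute-phase gene Saa3 (5.51 and -3.05).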

How the results depend on the processing

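With 1 KO and 1 WT library, neither could be left out. The counts of genes past 2-fold depended on the expression minimum. At 1 CPM, 30 CPM and no minimum they were 846, 307 and 1382 higher and 1396, 333 and 2652 lower, against 489 and 582 at 10 CPM. With 4 other scalings, 2 other prior counts, all chromosomes, IMP2 WT or summed wild types as background, or without chromosomes 3, 4 and 10, both counts stayed within 1.5 times. Under the 4 scalings the median of all measured genes moved by at most 0.05. Of the ratios of single named genes under the scalings, prior counts and other wild types, 555 moved by less than their counting interval and 117 by more. Among genes at least 2-fold different, 0 changed sign. Smaller ratios could change sign, as Nfe2l1 did from 0.25 to -0.04 with IMP2 WT in place of IMP1 WT. Of the list medians, 517 stayed and 16 moved, 9 of the 16 with IMP2 WT in place of IMP1 WT, which gave 0.37 for cell cycle, 0.16 for interferon-stimulated and 0.25 for Wnt genes. For the IPs, upper quartile scaling gave 2952 genes higher and 6391 lower in IMP1 IP against 4457 and 4491 as reported over the 14076 genes tested, and total count scaling 3086 and 6172. The genes lower in KO and higher in IMP1 IP were then 114 of 505 (22.6%) with upper quartile scaling, beside 21.0% of all genes tested. With total count scaling they were 122 (24.2%), beside 21.9%. The share over the 9044 genes measured in both was not counted under these scalings. That the shares lie below that of the whole set was therefore seen only with TMM. Leaving out each IP library in turn gave 4194 to 4792 higher, 4158 to 4937 lower, and 157 to 190 and 115 to 133 genes higher in IMP1 IP among those lower and higher in KO. Same-numbered IP libraries did not deviate together, so their numbers were not taken as pairing them. With replicate number as a block the counts were 4494 higher and 4523 lower, and 173 and 127 of the genes lower and higher in KO.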
